A study of Mus musculus with 24 samples.

Results

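Liver gene expression was compared between Hfe-/- mice of the DBA/2 (D2) strain and Hfe-/- mice of the C57BL/6 (B6) strain, over all probe sets of the array. The comparison rests on 6 of the 24 samples of the series, 3 D2 Hfe-/- livers and 3 B6 Hfe-/- livers, each from a different male mouse aged 7 weeks. The other arrays used here were 3 D2 wild-type and 3 B6 wild-type livers of the same sex and age, and, set beside the liver values, the duodenum of the same groups. All mice ate the same diet and were fasted before they were killed, and no group received a treatment. The knockout mice lack Hfe in every tissue and were bred in the animal facility where the study was run, whereas the wild-type mice were bought from a breeder, so genotype and place of birth cannot be told apart. The strain comparison within the knockout mice does not share that limit. Hfe-/- mice of the D2 strain are known to load more liver iron than those of the B6 strain, so that strain and iron load cannot be told apart in these values.

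HFE is a membrane protein related to MHC class I that takes part in the sensing of plasma iron by hepatocytes. With bone morphogenetic protein (BMP) signals carried by SMAD proteins, it raises transcription of Hamp, which encodes the hormone hepcidin. Hepcidin removes the iron exporter ferroportin from the surface of enterocytes and macrophages and so limits iron entry into plasma. Where HFE is missing, hepcidin is too low for the iron stores, and iron collects in the liver. Mice carry a second hepcidin gene, Hamp2, next to Hamp, and hepcidin made from Hamp is the form known to control iron.

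Expression was read on Affymetrix Mouse Genome 430 2.0 arrays as MAS5 signals, a brightness per probe set scaled so that the trimmed mean of every array is 100. Signals of Hfe itself were 82.9, 70.4 and 82.9 in D2 Hfe-/- livers and 89.2, 86.2 and 98.8 in B6 Hfe-/- livers, against 437, 434 and 515 in D2 wild-type and 674, 685 and 691 in B6 wild-type livers. All 6 knockout arrays lay below all 6 wild-type arrays, as their labels say. The number of arrays, 3 in each group, limits the precision, and the smallest two-sided p of an exact permutation test on 3 and 3 arrays is 0.1. Differences were therefore tested with limma across all probe sets on 12 liver arrays. D2 Hfe-/- array 1 stood apart: its log2 signals had an SD of 0.339 around the mean of the other arrays of its group, against 0.205 to 0.287 for the other 11 liver arrays. The liver arrays were hybridized on 3 days. No run is recorded for them, so runs were inferred here from gaps between the recorded hybridization times, which gave 4 runs. The 3 D2 Hfe-/- arrays were in the same run and the B6 Hfe-/- arrays in 3 others, so strain and run are separated only through wild-type arrays that share those runs. Only D2 wild-type array 3 shared the run of the D2 Hfe-/- arrays. B6 Hfe-/- array 2 was the only liver array of its run, so it adds nothing to the values with run as a block. Values with the run as a block are given for knockout calls that the block ended in genes whose signals are printed. Genes named as called without their signals are not all given in this way, and may also have lost the call. The defining hepatocyte genes had a mean log2 signal of 12.6 to 12.7 over 17 markers in D2 Hfe-/- and 12.5 to 12.9 in B6 Hfe-/- livers.

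In knockout liver 708 of 13006 genes had an adjusted p of 0.01 or less and were called, which is 5.44% of the genes tested. Of these, 365 were higher in D2 (2.81%) and 343 were lower in D2 (2.64%). These shares are the background for every count of called genes in a list below. Over probe sets, 1326 of 28061 were called (4.73%), and 5968 had an unadjusted p under 0.05. The difference was at least 2-fold for 345 of the genes called and at least 16-fold for 20. All 3 D2 Hfe-/- arrays lay on the same side of all 3 B6 Hfe-/- arrays for 25.5% of genes, which is the background for each remark below that groups did not overlap. Chromosome 4 had the highest share of its genes called (8.97%), followed by chromosomes 19 (8.11%) and 1 (7.28%), and the X chromosome the lowest (2.12%). The count was 139 probe sets with run as a block and 851 without D2 Hfe-/- array 2. D2 sequence variants under the probes could not be checked. For the strain differences within a genotype given here, a difference in RNA and one in probe binding therefore cannot be told apart.

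The wild-type arrays show which of these strain differences were also there with Hfe intact. In wild-type liver 653 genes were called (5.02%), 323 higher in D2 (2.48%) and 330 lower (2.54%). A total of 383 genes were called in both genotypes, which is 54.1% of the knockout calls and 58.7% of the wild-type calls, and all 383 differed in the same direction. Of the 325 genes called in knockout liver only, 300 had the same sign in wild-type liver, so that a call in a single genotype did not by itself mark a different strain effect. The test of the difference between the strain differences, at an adjusted p of at most 0.1, called 29 genes (0.223%) and 60 probe sets (0.214%), and 2733 probe sets had an unadjusted p under 0.05. In 17 of the 29 genes D2 minus B6 was larger in knockout than in wild-type liver (0.131%), and in 12 it was smaller (0.0923%). This count turned on single arrays: it was 635 probe sets without D2 Hfe-/- array 1 and 91 without B6 Hfe-/- array 3. It was between 26 and 39 without D2 Hfe-/- array 2 or 3, D2 wild-type array 1 or 2, or B6 wild-type array 1 or 2, and 10 with run as a block.

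**Figure D1:**
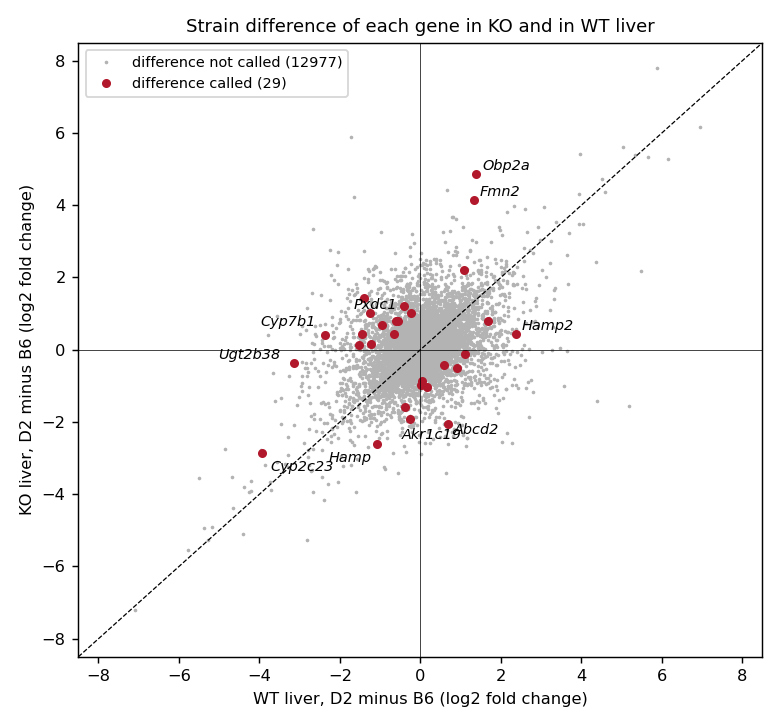
Strain difference of each of 13006 genes, as log2 fold change of D2 over B6, in knockout liver (vertical axis) and wild-type liver (horizontal axis); large points are the 29 genes whose 2 differences were called different, and the dashed line marks equal differences. Hamp lies below the line, at -2.60 in knockout and -1.08 in wild-type liver, and Obp2a above it, at 4.87 and 1.38.

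Of the genes on the iron and heme lists, Hamp had the smallest adjusted p. Hamp signals were 1111, 2027 and 1719 in D2 Hfe-/- livers and 10698, 7940 and 10258 in B6 Hfe-/- livers. No D2 value came near the lowest B6 value, and the mean was 6.08-fold lower in D2 (log2 difference -2.60 ± 0.18 SE, adjusted p = 1.73e-07). With Hfe intact Hamp was 5043, 4952 and 4132 in D2 and 10256, 9690 and 9801 in B6, a log2 difference of -1.08 (adjusted p = 0.001). The strain gap was wider in the knockouts, by -1.53 on the log2 scale (adjusted p = 0.025). D2 Hfe-/- livers were below all D2 wild-type livers (log2 difference -1.58, adjusted p = 0.000396, in a comparison that called 3.33% of genes at 0.1), and B6 Hfe-/- livers overlapped with B6 wild-type livers (-0.05, adjusted p = 0.95, with 1.15% of genes called). The difference of the gaps was no longer called without D2 wild-type array 1 or 2 (-1.49 to -1.47) or with run as a block (-1.50, adjusted p = 0.31). The other Hamp probe set on the array was called in the same direction.

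Hamp2 had another pattern. Hamp2 signals were 4048, 6750 and 4367 in D2 Hfe-/- and 2994, 4276 and 3674 in B6 Hfe-/- livers, which overlap (log2 difference 0.45, adjusted p = 0.18). In wild-type livers Hamp2 was 13527, 13282 and 12978 in D2 against 3307, 2393 and 2143 in B6, with a log2 difference of 2.37 (adjusted p = 9.9e-07). The strain difference was thus smaller in knockout liver by -1.92 (adjusted p = 0.0093), which was not called with run as a block (-1.70, adjusted p = 0.31). All D2 knockout livers were below all D2 wild-type livers (-1.43, adjusted p = 0.00181). The study also measured both hepcidin genes by quantitative PCR. It found their fall in D2 Hfe-/- livers in the samples used for the arrays. In additional mice the fall was not established, and the study reports only a trend for both genes.

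The sequences just before the hepcidin genes are shown because both genes were lower in D2 knockout than in D2 wild-type liver on these arrays. They are also close copies of each other. The sequences shown are the RefSeq sequences of GRCm38.p6, the B6 reference, from 250 bases before to 50 bases after each gene start, on the minus strand, at chr7:30943980-30944279 for Hamp and chr7:30924132-30924431 for Hamp2. Capitals mark GGCGCC, the letters of a BMP-responsive element, and TTCNNNGAA, the letters of a STAT site.
Hamp: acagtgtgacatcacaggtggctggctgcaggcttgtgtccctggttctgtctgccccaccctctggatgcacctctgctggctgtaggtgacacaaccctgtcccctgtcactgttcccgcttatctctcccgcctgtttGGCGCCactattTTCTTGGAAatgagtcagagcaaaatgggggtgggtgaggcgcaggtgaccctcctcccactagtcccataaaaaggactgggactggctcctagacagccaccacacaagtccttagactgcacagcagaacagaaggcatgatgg
Hamp2: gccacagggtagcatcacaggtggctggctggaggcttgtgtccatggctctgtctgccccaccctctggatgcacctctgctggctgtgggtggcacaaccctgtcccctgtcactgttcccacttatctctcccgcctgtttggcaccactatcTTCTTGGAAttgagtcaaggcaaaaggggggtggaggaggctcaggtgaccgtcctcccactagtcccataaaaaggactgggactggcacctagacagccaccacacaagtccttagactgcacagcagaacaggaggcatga
The windows are 91.1% identical over 303 aligned columns, 6 of them gaps. GGCGCC starts 109 bases before the Hamp start and is not in the Hamp2 window, while TTCNNNGAA starts 97 bases before the Hamp start and 94 bases before the Hamp2 start. Searched on both strands, GGCGCC was in 12% and TTCNNNGAA in 8.47% of 27025 mouse promoters of this length, and CACGTG, the E-box bound by USF proteins, was in 7.24% but in neither hepcidin window. A match of letters is no evidence of binding, and the D2 sequence of these windows was not analysed here. Hamp and Hamp2 are near-identical copies, and to what extent their probe sets read each other's RNA was not tested.

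Of the 30 tested genes on the list of hepcidin and its upstream control, 4 were lower in D2 Hfe-/- livers and 0 higher, with a median log2 difference of -0.0028 beside 0.05 over all genes. Besides Hamp these were Id1, Id3 and Usf2. Id1 and Id3 encode inhibitors of DNA binding that are direct targets of BMP and SMAD signalling. Id1 was 34.4, 35.5 and 36.3 in D2 Hfe-/- against 132, 220 and 108 in B6 Hfe-/- livers, a log2 difference of -2.05 ± 0.24 (adjusted p = 4.2e-05). Id3 was 161, 317 and 290 in D2 Hfe-/- against 636, 763 and 564 in B6 Hfe-/- livers (log2 difference -1.40 ± 0.21, adjusted p = 0.000443). In both genes every D2 value was below every B6 value. The same order was seen in wild-type liver, where the log2 differences were -0.99 for Id1 (adjusted p = 0.015) and -0.94 for Id3 (adjusted p = 0.01). The difference between genotypes was not called for either gene (adjusted p = 0.29 and 0.66). Smad7, an inhibitor of the same pathway that is itself induced by it, was 32.9, 33.1 and 29.2 in D2 against 48.5, 69.4 and 63.2 in B6 Hfe-/- livers, without overlap and not called (log2 difference -0.91, adjusted p = 0.023). Usf2, an E-box binding factor, was 77.8, 95.8 and 104 in D2 Hfe-/- and 190, 204 and 143 in B6 Hfe-/- livers (log2 difference -0.95, adjusted p = 0.00203), and was not called without B6 Hfe-/- array 1 (-0.89) or 2 (-0.84). With run as a block Hamp kept its call (-2.46, adjusted p = 0.00242), while Id1 (-1.59, adjusted p = 0.071), Id3 (-0.78, adjusted p = 0.50) and Usf2 (-0.68, adjusted p = 0.51) did not.

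The ligand, co-receptor and protease genes described next showed no called strain difference in knockout liver. Bmp6, the ligand that rises with liver iron, was 35.6, 48.7 and 39.2 in D2 Hfe-/- and 84.6, 35.4 and 63.5 in B6 Hfe-/- livers, overlapping at low signals (log2 difference -0.49, adjusted p = 0.47, or -2.01, adjusted p = 0.060, with run as a block). Its value was -1.13 with day as a block and -0.84 to -0.21 with each array left out. Hjv, the BMP co-receptor hemojuvelin, was 619, 831 and 834 in D2 and 452, 572 and 575 in B6, without overlap (0.51, adjusted p = 0.017), and was called only without D2 Hfe-/- array 1 (0.65). Tmprss6, the protease that cuts hemojuvelin, was 1999, 2261 and 2306 in D2 and 2032, 1951 and 1820 in B6 (0.18, adjusted p = 0.27).

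**Figure D2:**
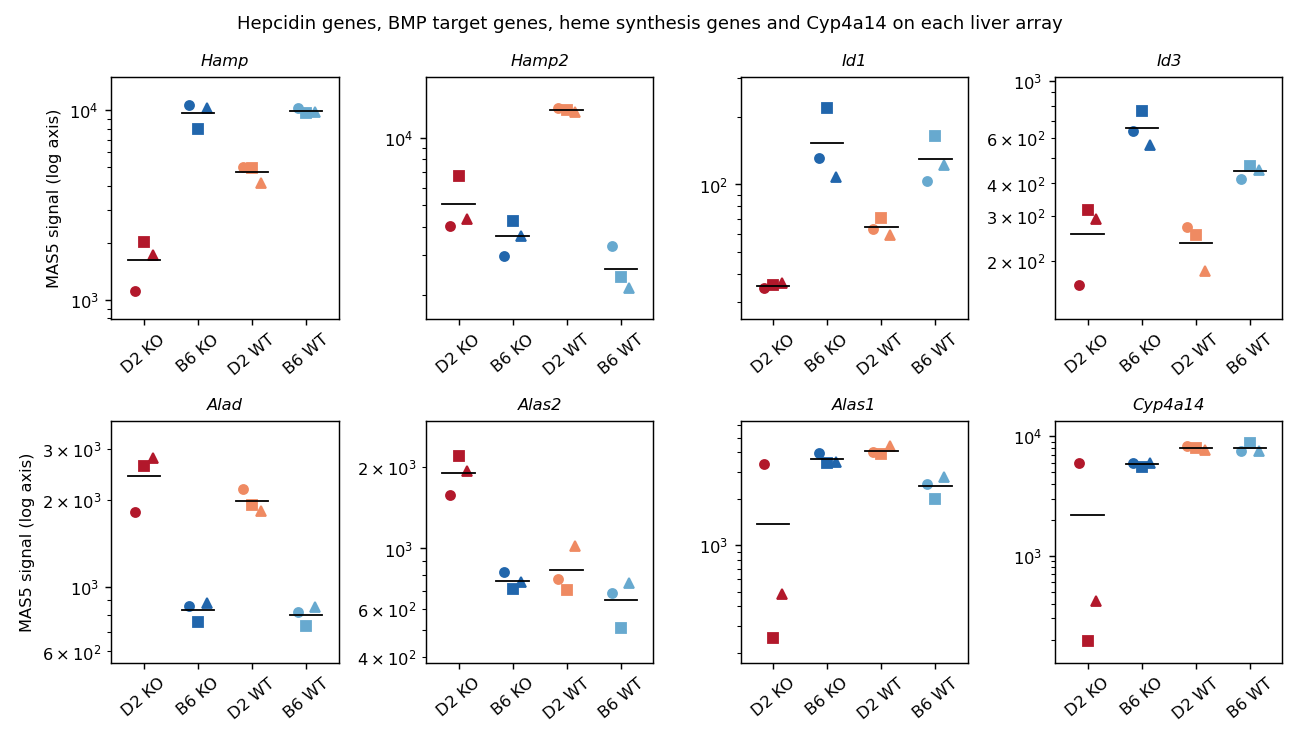
MAS5 signals (log axes) of both hepcidin genes, the BMP target genes Id1 and Id3, the heme synthesis genes Alad, Alas2 and Alas1, and Cyp4a14 on each of 12 liver arrays, in the order D2 knockout (KO), B6 KO, D2 wild-type (WT) and B6 WT; the circle, square and triangle are arrays 1, 2 and 3, and the bar is the group mean. Hamp, Id1 and Id3 lie lower on all 3 D2 KO arrays than on any B6 KO array, and Alas1 and Cyp4a14 are low on D2 KO arrays 2 and 3 but not on D2 KO array 1.

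The list of heme synthesis and breakdown had 2 of 14 tested genes higher and 0 lower in D2 Hfe-/- livers. Alad, which encodes the second enzyme of heme synthesis, was 1814, 2625 and 2796 in D2 Hfe-/- against 862, 756 and 885 in B6 Hfe-/- livers, 2.85-fold higher (log2 difference 1.51 ± 0.14, adjusted p = 3.4e-06). Its wild-type difference was close to that, at 1.31 (adjusted p = 1.7e-05), and its other probe set was not called. Alas2, the first enzyme in its erythroid form, was 1570, 2189 and 1931 in D2 Hfe-/- and 816, 711 and 752 in B6 Hfe-/- livers (log2 difference 1.31 ± 0.16, adjusted p = 6.51e-05). All D2 knockout arrays were above the other 9 liver arrays, the wild-type difference was 0.36 (adjusted p = 0.20), and the difference between genotypes was not called (adjusted p = 0.15). Alas2 was the only gene called among 8 erythroid markers, whose mean log2 signal was 5.44 to 5.79 in D2 Hfe-/- and 5.20 to 5.61 in B6 Hfe-/- livers (the part of erythroid cells in this result was not tested). Alas1, the liver form of the same enzyme, was 3387, 248 and 481 in D2 Hfe-/- and 3963, 3423 and 3460 in B6 Hfe-/- livers. Array 1 of D2 was just below the B6 values and the other 2 were far below it, so the gene was not called (-2.29 ± 0.60, adjusted p = 0.025) but was called when D2 array 1 was left out (-3.39) and for the mean of its 2 probe sets (-2.28). With run as a block neither Alad (1.60, adjusted p = 0.014) nor Alas2 (0.80, adjusted p = 0.28) was called.

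Iron and heme transport and storage genes had few calls. Of 31 genes tested 1 was higher and 1 lower in D2 Hfe-/- livers (6.45% called, near the 5.44% over all genes). In D2 wild-type livers 4 were higher and 0 lower (12.9%, beside 5.02%). Steap4, a ferrireductase, was 498, 484 and 400 in D2 Hfe-/- against 206, 183 and 225 in B6 Hfe-/- livers (log2 difference 1.17 ± 0.12, adjusted p = 1.57e-05), with no overlap. Slc48a1, a heme transporter, was 167, 131 and 161 in D2 Hfe-/- against 287, 329 and 258 in B6 Hfe-/- livers (-0.93 ± 0.13, adjusted p = 0.000301, or -0.48 for the mean of its 2 probe sets). With run as a block these were 0.82 (adjusted p = 0.12) and -0.86 (adjusted p = 0.19). Ferroportin, Slc40a1, was 2638, 2688 and 2607 in D2 Hfe-/- and 2289, 2136 and 1720 in B6 Hfe-/- livers, higher on every D2 array but not called (0.38, adjusted p = 0.073), while in wild-type liver its difference was called at 0.86 (adjusted p = 0.00034). The same held for Slc39a14, which imports non-transferrin-bound iron, with 0.26 in knockout (adjusted p = 0.16) and 0.67 in wild-type liver (adjusted p = 0.00077). For neither was the difference between genotypes called (adjusted p = 0.37 for both). The transferrin receptor gene Tfrc averaged 106 in D2 Hfe-/- and 110 in B6 Hfe-/- livers (0.01, adjusted p = 0.99), ferritin heavy chain Fth1 differed by 0.17 (adjusted p = 0.53), and the heme-degrading enzyme Hmox1 was 71.1, 128 and 198 in D2 against 241, 124 and 157 in B6, which overlap (adjusted p = 0.41).

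Mitochondrial iron genes had 1 call each way among 19. Fdx1, a ferredoxin of iron-sulfur cluster and steroid synthesis, was 2868, 3321 and 3433 in D2 and 2324, 2169 and 2323 in B6 Hfe-/- livers (0.49, adjusted p = 0.00196). Sfxn2, a mitochondrial sideroflexin, was 177, 212 and 198 in D2 and 276, 375 and 293 in B6 Hfe-/- livers (-0.68, adjusted p = 0.00332). Both were free of overlap and both calls were narrow: Fdx1 was lost without D2 Hfe-/- array 2 or 3 (0.44 to 0.47), Sfxn2 without D2 Hfe-/- array 1 or 3 or B6 Hfe-/- array 2 (-0.69 to -0.54). Neither was called with run as a block (0.38, adjusted p = 0.46, for Fdx1 and -0.58, adjusted p = 0.36, for Sfxn2). The mean of the 4 Sfxn2 probe sets differed by -1.32 and was not called.

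The largest rises were led by genes whose B6 signals were near or below the array medians, which were 15.8 to 21.0 in liver. Such fold changes rest on low signals, and those that shrank by over 1.5 times with 16 added before the log are given both ways. Corin, a serine protease that activates natriuretic peptide, was 211, 168 and 118 in D2 Hfe-/- and 0.804, 0.843 and 0.545 in B6 Hfe-/- livers (log2 difference 7.81, adjusted p = 1.77e-07; 3.41 with 16 added). H2-Ea, an MHC class II chain whose gene is known to be defective in B6, was 216, 241 and 166 in D2 against 1.25, 13.2 and 4.53 in B6 Hfe-/- livers (5.61, adjusted p = 0.000356; 3.35 with 16 added). Xaf1, an interferon-inducible regulator of cell death, was 546, 359 and 375 in D2 against 16.1, 2.94 and 20.8 in B6 (5.40, adjusted p = 9.06e-06), its other probe set was not called, and the mean of both differed by 2.69. These 3 genes differed to a like extent in wild-type liver, by 5.88, 5.03 and 5.33, and the difference between genotypes was not called for any of them (adjusted p = 0.41, 0.92 and 0.99).

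Among falls, Nlrp12, an inflammasome-family regulator, was 18.4, 12.8 and 3.17 in D2 Hfe-/- and 1481, 1284 and 1235 in B6 Hfe-/- livers (-7.19, adjusted p = 4.8e-08). Nnmt, the hepatic methyltransferase of nicotinamide, was 93.1, 57.1 and 86.6 in D2 and 1784, 3673 and 2759 in B6 Hfe-/- livers, 34.0-fold lower in D2 (-5.09 ± 0.37, adjusted p = 3.12e-07). Pttg1, the mitotic protein securin, was 146, 177 and 234 in D2 and 2298, 2250 and 2307 in B6 (-3.65, adjusted p = 1.7e-10). In these genes the B6 signal was far above the array medians and the groups were far apart. Their wild-type differences were -7.09, -4.41 and -3.73. Whether D2 variants under their probes play a part was not tested. Other large falls were Rpgrip1 (-3.63), Zfp874a (-3.93), Lpin1 (-3.33), Ildr2 (-3.53) and Mndal (-5.27, or -3.27 with 16 added), and other large rises were Ifi202b (6.15, or 3.32 with 16 added), Rassf4 (4.74), Snrnp25 (3.94) and Adgrv1 (3.81). Each was called in wild-type liver as well, in the same direction. After blocking by run H2-Ea (adjusted p = 0.050), Mndal (0.050), Ifi202b (0.075) and Adgrv1 (0.060) were no longer called, and the other 11 genes among these rises and falls were, Ildr2 at -6.19.

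Another 6 of the 12 largest rises and 12 largest falls had signals near or below the array medians in the lower strain. Prelid2 (5.42, or 2.96 with 16 added), Tmem87a (3.49, or 2.18) and D630033O11Rik (3.23, or 2.33) were higher in D2 Hfe-/- livers. Tmem267 (-5.28, or -2.73), Gm13306 (-4.93, or -2.60) and Gm7969 (-4.39, or -2.45) were lower. Each of the 6 was called in wild-type liver too, except Tmem267 (-2.81, adjusted p = 0.062). Prelid2 and Gm7969 (-6.80) kept their calls with run as a block, and Tmem87a (adjusted p = 0.49), D630033O11Rik (0.45), Tmem267 (0.20) and Gm13306 (0.019) did not. The Tmem87a call was lost without any of the 6 Hfe-/- arrays or of the 3 D2 wild-type arrays (2.65 to 3.95), and that of D630033O11Rik without D2 Hfe-/- array 3 (3.16).

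Cyp39a1 was also among the largest falls but was not called in wild-type liver. It encodes an oxysterol hydroxylase of bile acid synthesis and was 66.3, 29.3 and 29.2 in D2 Hfe-/- and 418, 938 and 509 in B6 Hfe-/- livers, 15.2-fold lower in D2 (-3.93 ± 0.37, adjusted p = 5.91e-06). In wild-type liver it was 298, 305 and 120 in D2 and 810, 619 and 599 in B6 (-1.59, adjusted p = 0.014). D2 Hfe-/- arrays were below all others, but the difference between genotypes was not called (-2.33, adjusted p = 0.13) except when D2 wild-type array 3 or D2 Hfe-/- array 1 was left out. Once run was blocked the knockout difference was -2.26 (adjusted p = 0.054).

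**Figure D3:**
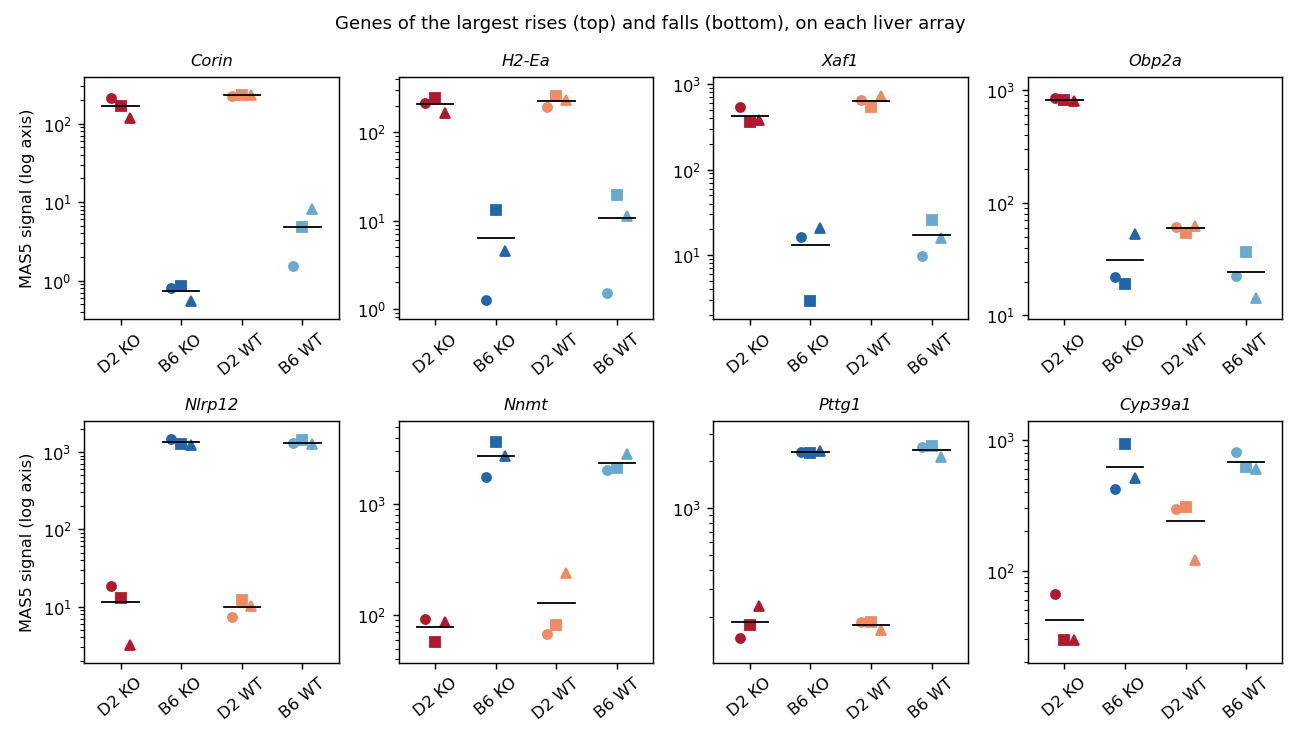
MAS5 signals (log axes) of 4 genes of the largest rises (Corin, H2-Ea, Xaf1, Obp2a) and 4 of the largest falls (Nlrp12, Nnmt, Pttg1, Cyp39a1) on each of 12 liver arrays, in the order D2 KO, B6 KO, D2 WT and B6 WT; the circle, square and triangle are arrays 1, 2 and 3, and the bar is the group mean. In each gene the 3 D2 KO arrays lie apart from the 3 B6 KO arrays, and in Obp2a and Cyp39a1 the D2 KO arrays also lie apart from the D2 WT arrays.

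Genes whose D2 minus B6 difference was larger in knockout than in wild-type liver included Obp2a, Fmn2, Ugt2b38 and Cyp7b1. Obp2a, an odorant-binding protein of the lipocalin family made by male liver, was 850, 824 and 793 in D2 Hfe-/- and 22.1, 18.9 and 53.0 in B6 Hfe-/- livers, 29.2-fold higher (4.87 ± 0.35, adjusted p = 2.59e-07). In wild-type liver it was 61.4, 54.4 and 62.2 in D2 and 22.4, 36.8 and 14.2 in B6, so that only the D2 knockout livers were high (difference 3.49, adjusted p = 0.01). Fmn2, an actin-nucleating formin, was 170, 334 and 421 in D2 Hfe-/- and 14.1, 18.7 and 16.2 in B6 Hfe-/- livers (4.15, adjusted p = 1.27e-07), against 1.33 in wild-type liver (difference 2.83, adjusted p = 0.0088). For both genes the knockout call held with run as a block and the difference was called whichever array was left out, but the difference was not called with run as a block (adjusted p = 0.22 for Obp2a and 0.30 for Fmn2).

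Ugt2b38, a glucuronosyltransferase, was 248, 457 and 357 in D2 Hfe-/- and 482, 367 and 481 in B6 Hfe-/- livers, which overlap (-0.36, adjusted p = 0.45). In wild-type liver Ugt2b38 was 82.8, 75.7 and 51.2 in D2 and 792, 650 and 421 in B6 (-3.13, adjusted p = 8.7e-07), well apart (difference 2.78, adjusted p = 0.0046, and 0.092 with run as a block). Cyp7b1, which hydroxylates oxysterols and steroids, had the same pattern, at 2653, 4974 and 5568 in D2 and 5160, 1382 and 4526 in B6 Hfe-/- livers against 622, 611 and 1184 in D2 and 4394, 3680 and 3938 in B6 wild-type livers. Its difference was narrow (2.78, adjusted p = 0.097) and was lost (2.57 to 2.84) without D2 Hfe-/- array 2 or 3, D2 wild-type array 1 or 2 or any B6 wild-type array, and with run as a block (1.49, adjusted p = 0.48). The steroid dehydrogenase gene Hsd3b3 (1.63, adjusted p = 0.085) was likewise lost (1.45 to 1.67) without D2 Hfe-/- array 2 or 3, B6 Hfe-/- array 1 or 2, D2 wild-type array 1 or 2, or B6 wild-type array 1 or 3. Med18, a Mediator subunit, had a difference of 2.28 (adjusted p = 0.022, and 0.15 with run as a block), and its knockout difference of 1.02 (adjusted p = 0.021) was called only without B6 Hfe-/- array 2 (1.30).

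In the other direction, besides Hamp and Hamp2, the genes of largest difference were Abcd2, Akr1c19, Stbd1, Gdap10, Snhg6 and Cyp2c37. Abcd2, a peroxisomal transporter of very long-chain fatty acids that is female-biased in mouse liver, was 33.8, 15.1 and 14.6 in D2 Hfe-/- and 110, 115 and 41.5 in B6 Hfe-/- livers (-2.04, adjusted p = 0.00199; difference -2.72, adjusted p = 0.068). The knockout call was lost without D2 Hfe-/- array 2 or 3 or B6 Hfe-/- array 1 or 2 (-1.86 to -1.79). Snhg6, a host gene of small nucleolar RNA, was 240, 157 and 232 in D2 and 629, 639 and 592 in B6 Hfe-/- livers (-1.59, adjusted p = 5.97e-06) with a wild-type difference of -0.37 (difference -1.22, adjusted p = 0.043). Cyp2c37, a cytochrome P450 of family 2, was 1243, 1056 and 1096 in D2 and 2080, 1976 and 2962 in B6 Hfe-/- livers (-1.03, adjusted p = 0.000808), and in wild-type liver the strains overlapped (0.17; difference -1.20, adjusted p = 0.080). Stbd1, a glycogen-binding protein, and Gdap10 had called differences of -1.41 and -1.22 that came from higher D2 signals in wild-type liver (0.92 and 1.10), with -0.49 and -0.12 in knockout liver. The Abcd2 and Stbd1 differences were lost without any of 9 arrays each (-2.85 to -2.47 and -1.44 to -1.26), and that of Cyp2c37 without any of 7, which were D2 Hfe-/- arrays 2 and 3, D2 wild-type arrays 1 and 2 and the B6 wild-type arrays (-1.27 to -1.10). Arrays whose loss left Abcd2 called were D2 Hfe-/- 1, D2 wild-type 3 and B6 Hfe-/- 3, and for Stbd1 they were D2 Hfe-/- 1, B6 Hfe-/- 2 and B6 wild-type 3. The Snhg6 difference was lost without D2 wild-type array 1 or B6 wild-type array 1 or 2 (-1.21 to -1.09), and that of Gdap10 was kept whichever array was left out. Of these 5 genes none kept a called difference with run as a block, nor did Abcd2 (-1.56, adjusted p = 0.38), Snhg6 (-1.72, adjusted p = 0.020) and Cyp2c37 (-0.56, adjusted p = 0.34) keep their knockout calls.

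Interferon-stimulated genes were the list with the most calls in a single direction. Of 45 genes tested 16 were higher and 0 lower in D2 Hfe-/- livers, with a median log2 difference of 0.85 beside 0.05 over all genes. Of the same 45 genes, 13 were higher and 1 lower in D2 wild-type livers (median 0.79), and for none was the difference between genotypes called. Ifi27, a mitochondrial protein induced by type I interferon, was 1807, 1380 and 1792 in D2 and 555, 476 and 569 in B6 Hfe-/- livers (1.63 ± 0.12, adjusted p = 4.74e-07). Gbp6, a guanylate-binding GTPase, was 291, 203 and 196 in D2 and 44.1, 85.0 and 43.4 in B6 Hfe-/- livers (2.05 ± 0.23, adjusted p = 3.48e-05). Rtp4 was 911, 421 and 489 in D2 and 205, 211 and 159 in B6 (1.59, adjusted p = 0.000163), and the immunoproteasome subunit Psmb9 was 255, 266 and 189 in D2 and 109, 111 and 60.3 in B6 (1.38, adjusted p = 0.000317). In all 4 genes the strains did not overlap. The others called were Xaf1, Ifit3, Ifi35, Ifi47, Oas1a, Irf9, Dhx58, Igtp, Irgm2, Iigp1, Parp14 and Psmb8. When run was blocked Ifi27, Gbp6 and Xaf1 kept their calls. Rtp4 (1.67, adjusted p = 0.11), Psmb9 (1.55, adjusted p = 0.053) and Iigp1 (0.64, adjusted p = 0.23) did not. The interferon-stimulated response element, searched on both strands, was in the promoters of 4 of the 10 called genes with a RefSeq entry, in 14 of 22 other tested genes of the list and in 3.49% of all promoters.

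Immune genes without a common direction included the Ifi200 cluster, where 1 of 7 genes was higher (Ifi202b) and 2 were lower (Mndal and Ifi213) in D2 Hfe-/- livers, and the MHC genes, where 2 of 25 were higher (H2-D1 and H2-Ea) and 2 lower (H2-K1 and H2-Q5). H2-K1, a classical class I heavy chain, was 2840, 3495 and 3132 in D2 and 6028, 5552 and 6386 in B6 Hfe-/- livers (-0.93, adjusted p = 2.97e-05), and H2-D1 was 4837, 5477 and 5153 in D2 and 3548, 3088 and 3826 in B6 (0.57, adjusted p = 0.00116). The strains carry different alleles of these genes, and 4 of the 7 other probe sets of H2-D1 and 1 of 3 of H2-K1 were called in the same direction. The mean of all H2-D1 probe sets differed by 3.23. Neither H2-K1 (adjusted p = 0.042) nor H2-D1 (0.39) was called with run as a block, and Ifi213 (0.20) and H2-Q5 (0.70) also lost their calls.

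Acute phase proteins were higher in D2 Hfe-/- livers for 6 of 32 genes, and 1, Hamp, was lower (median 0.24), beside 6 and 1 in wild-type liver. Apcs, serum amyloid P, was 3271, 3987 and 3611 in D2 and 1009, 1149 and 947 in B6 Hfe-/- livers (1.81 ± 0.14, adjusted p = 7.26e-07). Serpina3n, a serine protease inhibitor, was 3009, 3586 and 3314 in D2 and 1136, 1347 and 1558 in B6 (1.30, adjusted p = 3.31e-06), and the fibrinogen chain Fga was 12815, 15665 and 13958 in D2 and 8084, 7522 and 8874 in B6 (0.79, adjusted p = 0.000216). None of the 3 overlapped between strains, and each was called in wild-type liver too (1.95, 1.09 and 0.71). Complement and coagulation had 2 genes higher and 2 lower of 36. Hc, complement component C5, which DBA/2 mice are known to lack as a protein, was 1195, 1589 and 1554 in D2 and 4388, 4744 and 4504 in B6 Hfe-/- livers (-1.66 ± 0.12, adjusted p = 2.59e-07; -1.99 in wild-type liver). F11, coagulation factor XI, was 1076, 2130 and 2053 in D2 and 652, 644 and 647 in B6 Hfe-/- livers (1.37, adjusted p = 0.000728), with a wild-type difference of 0.46 (adjusted p = 0.24). In the fit blocked by run Apcs and Hc kept their calls, while Serpina3n (1.21, adjusted p = 0.029), Fga (0.81, adjusted p = 0.10) and F11 (1.45, adjusted p = 0.22) did not.

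Genes of amino acid breakdown and of the fasting liver were called in a single direction. Of 26 genes on the gluconeogenesis and fasting list 0 were higher and 7 lower in D2 Hfe-/- livers, the same counts as in wild-type liver, with medians of -0.10 and -0.20. Got1, cytosolic aspartate aminotransferase, was 1214, 1036 and 1251 in D2 and 3781, 4549 and 3584 in B6 Hfe-/- livers, 3.40-fold lower (-1.76 ± 0.12, adjusted p = 2.4e-07). Tat, tyrosine aminotransferase, was 2816, 2355 and 2735 in D2 and 5984, 6035 and 5279 in B6 (-1.13 ± 0.12, adjusted p = 2.03e-05). Asl, the urea cycle lyase, was 2898, 2563 and 2721 in D2 and 4238, 6185 and 6320 in B6 (-1.01, adjusted p = 0.000161). No D2 value reached a B6 value in any of these. Gpt2 (-0.71), Igfbp1 (-1.80), Nnmt and Ass1, argininosuccinate synthase, completed the list. Igfbp1, an insulin-repressed binding protein, was 918, 628 and 1151 in D2 against 4530, 4436 and 1405 in B6, and its call was lost without B6 Hfe-/- array 1 or 2 or D2 Hfe-/- array 2 (-1.57 to -1.52). Under a block for run Got1, Tat and Nnmt kept their calls, and Asl (adjusted p = 0.038), Gpt2 (0.19) and Igfbp1 (-1.13, adjusted p = 0.44) did not. Tat and Ass1 were also the 2 called of 17 hepatocyte markers.

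Lipid genes were mixed. Of 35 genes of fatty acid and triglyceride synthesis 2 were higher and 4 lower in D2 Hfe-/- livers (17.1% called, beside 5.44% over all genes). Lpin1, a phosphatidate phosphatase and co-activator, was 42.9, 108 and 72.9 in D2 and 945, 356 and 1028 in B6 Hfe-/- livers (-3.33 ± 0.36, adjusted p = 1.91e-05), and its relative Lpin2 was 791, 481 and 550 in D2 and 1905, 1204 and 1318 in B6 (-1.28, adjusted p = 0.000317). Pklr, liver pyruvate kinase, was 203, 308 and 298 in D2 and 130, 102 and 124 in B6 (1.16, adjusted p = 0.000166). Strain groups did not overlap for any of these, and Lpin1 alone of them kept its call with run as a block (Lpin2 adjusted p = 0.042, Pklr 0.18). Fatty acid oxidation genes had 4 higher and 3 lower of 51 (13.7% called, median -0.15). The omega-hydroxylase gene Cyp4a12a was 5126, 5795 and 5767 in D2 and 2955, 2585 and 2624 in B6 Hfe-/- livers (1.03 ± 0.10, adjusted p = 7.56e-06; 0.75, adjusted p = 0.057, with run as a block). Its relative Cyp4a14, a PPARA target, was 5926, 193 and 421 in D2 and 6008, 5569 and 5932 in B6, with D2 array 1 at the B6 level as in Alas1. It was not called (-2.90, adjusted p = 0.029) and was called without D2 Hfe-/- array 1 (-4.36). Of 21 cholesterol genes 1 was higher and 2 lower (median 0.33). The sterol desaturase Sc5d was 725, 1193 and 1024 in D2 and 2378, 1967 and 2237 in B6 Hfe-/- livers (-1.19, adjusted p = 4.62e-05), but neither of its 2 other probe sets was called, the mean of its probe sets differed by 0.09, and with run as a block it was not called (adjusted p = 0.043).

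Bile acid genes had 2 higher and 3 lower of 32 (15.6% called, beside 5.44% over all genes). Besides Cyp39a1 the falls were Slco1a4, an organic anion uptake transporter, at 169, 189 and 173 in D2 and 570, 1253 and 993 in B6 Hfe-/- livers (-2.34 ± 0.22, adjusted p = 4.95e-06), and Abcg5, a sterol exporter, at 491, 399 and 402 in D2 and 846, 1009 and 919 in B6 (-1.11 ± 0.13, adjusted p = 4.12e-05). D2 and B6 did not overlap in either. In wild-type liver the differences were smaller and not called (-0.98, adjusted p = 0.011, and -0.44, adjusted p = 0.046), and neither difference between genotypes was called (adjusted p = 0.13 and 0.20) unless D2 Hfe-/- array 1 was left out or, for Slco1a4, B6 Hfe-/- array 1. After blocking by run the knockout values were -1.99 (adjusted p = 0.013) and -1.17 (adjusted p = 0.050).

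Detoxification genes were called in both directions. Of 29 cytochrome P450 genes of family 2, 2 were higher and 3 lower in D2 Hfe-/- livers, against 5 and 2 in wild-type liver. Cyp2c23, an arachidonic acid epoxygenase, was 360, 568 and 467 in D2 and 3612, 3195 and 3178 in B6 Hfe-/- livers, 7.27-fold lower (-2.86 ± 0.14, adjusted p = 5.3e-09), and D2 wild-type livers were lower still, at 204, 192 and 239 (-3.93; difference 1.07, adjusted p = 0.064). That difference was lost without D2 Hfe-/- array 2 or 3, B6 Hfe-/- array 2, D2 wild-type array 1 or 2 or B6 wild-type array 1 or 2 (0.91 to 1.06). Cyp3a13, the only gene called of 10 in families 1 and 3, was 412, 338 and 344 in D2 and 1691, 2481 and 2280 in B6 Hfe-/- livers (-2.55 ± 0.13, adjusted p = 7.04e-09; -2.22 in wild-type liver). Both kept their calls with run as a block. Mgst3, a microsomal glutathione transferase, was 616, 674 and 587 in D2 and 154, 204 and 109 in B6 (2.05 ± 0.18, adjusted p = 2.37e-06), but the mean of its 2 probe sets differed by 0.32 and was not called. Gsto1, of the omega class, was 965, 883 and 1027 in D2 and 1732, 2018 and 1595 in B6 (-0.89, adjusted p = 2.97e-05). In all, 3 of 20 glutathione S-transferase genes were higher and 1 lower in D2 Hfe-/- livers (20% called, beside 5.44% over all genes). Of 23 NRF2 targets 1 was higher (Osgin1) and 2 lower (Cbr1 and Abcc2), with a median of -0.26. Cbr1, a carbonyl reductase, was 394, 295 and 431 in D2 and 780, 1082 and 739 in B6 Hfe-/- livers (-1.21, adjusted p = 8.28e-05; -0.26 in wild-type liver). The oxidant-producing and oxidant-removing enzymes had 0 higher and 3 lower of 24, led by the aldehyde oxidase Aox3, at 493, 1082 and 1145 in D2 and 3011, 2025 and 2418 in B6 Hfe-/- livers (-1.53, adjusted p = 0.000773; -3.06 in wild-type liver). Sult1c2, a sulfotransferase, was 133, 190 and 167 in D2 and 45.8, 55.6 and 25.4 in B6 (2.01, adjusted p = 8.9e-05), and Papss2, which makes the sulfate donor, was 438, 507 and 485 in D2 and 943, 959 and 1079 in B6 (-1.06, adjusted p = 9.59e-06). All of these were without overlap between strains. Once run was blocked Mgst3 and Papss2 kept their calls. Gsto1 (adjusted p = 0.058), Cbr1 (0.063), Aox3 (0.079), Sult1c2 (0.015), Osgin1 (0.070) and Abcc2 (0.057) did not. No gene was called among 10 UDP-glucuronosyltransferases in knockout liver.

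Genes with a known sex bias in mouse liver were read here in males only. Of 32 male-biased genes 5 were higher and 0 lower in D2 Hfe-/- livers (median 0.44), against 2 and 3 in wild-type liver (median -0.04). Of 19 female-biased genes 0 were higher and 4 lower in D2 Hfe-/- livers (median -0.47), against 3 and 1 in wild-type liver (median 0.94). The difference between genotypes was called for 3 male-biased genes (9.38%), all larger in knockout liver. It was called for 1 female-biased gene (5.26%), smaller in knockout liver. Over all genes 0.131% were called larger and 0.0923% smaller. The number of such calls over all probe sets turned on single arrays, and went from 60 to 10 with run as a block. Besides Obp2a and Cyp4a12a, Keg1 was 2569, 1663 and 2108 in D2 and 1263, 839 and 846 in B6 Hfe-/- livers (1.11, adjusted p = 0.000638), and the major urinary protein gene Mup10 was 1346, 2168 and 2683 in D2 and 447, 158 and 959 in B6 (2.28, adjusted p = 0.00313). Major urinary proteins form a family of near-identical genes that their probe sets may not tell apart. The Mup10 call was lost without D2 Hfe-/- array 2 or 3 or B6 Hfe-/- array 1 (2.07 to 2.35). Of female-biased genes, Cyp17a1, a steroid hydroxylase and lyase, was 47.2, 14.2 and 11.1 in D2 and 62.5, 413 and 131 in B6 Hfe-/- livers (-2.94, adjusted p = 0.00319), and its call was lost without D2 Hfe-/- array 2 or 3 or B6 Hfe-/- array 2 (-2.71 to -2.21). None of Cyp4a12a, Keg1, Mup10 and Cyp17a1 was called with run as a block (adjusted p = 0.057, 0.46, 0.21 and 0.53), where Keg1 was at 0.58 and Cyp17a1 at -1.58.

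Among other lists, Ccs, the copper chaperone of superoxide dismutase, was 955, 971 and 1051 in D2 and 1876, 1513 and 1595 in B6 Hfe-/- livers (-0.74, adjusted p = 0.000142, and 0.041 with run as a block), in a list of 25 metal-handling genes with 3 higher and 1 lower. Ndrg1, a hypoxia- and iron-responsive gene, was 469, 396 and 418 in D2 and 134, 198 and 166 in B6 (1.38 ± 0.20, adjusted p = 0.000362) and was the single call of 21 hypoxia targets. The wild-type difference was 1.52, and with run as a block the knockout difference was 2.40. No gene was called among 32 endoplasmic reticulum stress genes, and fibrosis genes had 1 higher and 1 lower of 38 (5.26% called, near the 5.44% over all genes). Dct, dopachrome tautomerase, an enzyme of pigment synthesis, was 642, 387 and 506 in D2 and 67.4, 51.3 and 173 in B6 Hfe-/- livers (2.57, adjusted p = 0.000117; 1.65 in wild-type liver; adjusted p = 0.058 with run as a block).

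**Figure D4:**
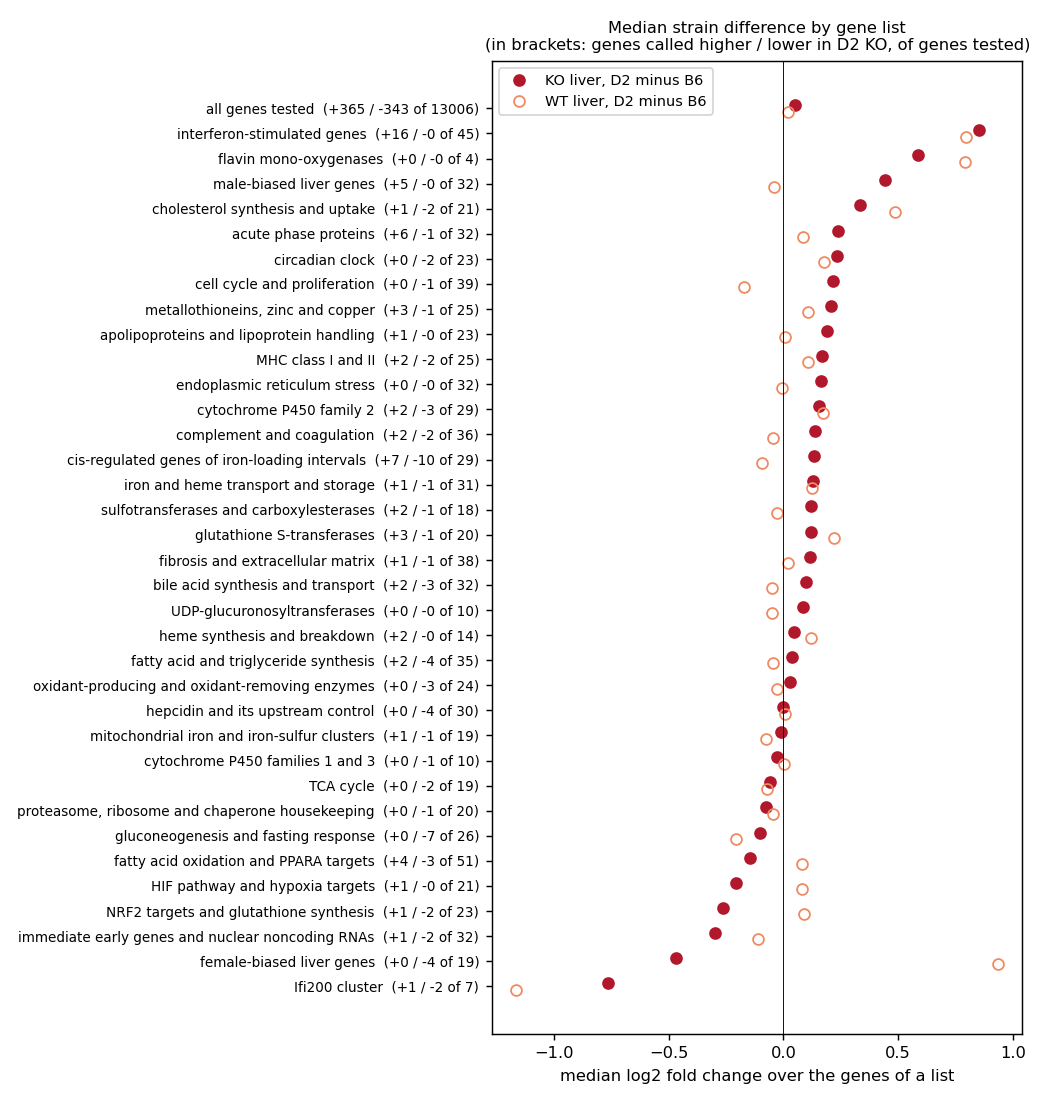
Median log2 fold change of D2 over B6 over the genes of each list, in knockout liver (filled points) and wild-type liver (open points), with the numbers called higher and lower in D2 KO liver in brackets. In KO liver interferon-stimulated genes lie highest, at 0.85, with 0.79 in WT liver, and female-biased genes lie on opposite sides of 0, at -0.47 and 0.94.

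Genes near Hfe were examined apart, since both knockout strains carry a disrupted Hfe locus. Hfe lies on chromosome 13 at 23702034-23710854 (GRCm38.p6). Within 20 Mb of it 9 of 142 genes were called in knockout liver (6.34%), 6 in wild-type liver (4.23%) and 5 for the difference (3.52%), beside 5.43%, 4.98% and 0.184% on the other chromosomes. Only 1 gene, Nrn1, was called in both genotypes, and its knockout call was lost with run as a block (0.86, adjusted p = 0.29). Zkscan3, a zinc finger repressor 2.32 Mb from Hfe, was 528, 580 and 503 in D2 Hfe-/- and 493, 440 and 498 in B6 Hfe-/- livers (0.17, adjusted p = 0.34), against 232, 208 and 219 in D2 wild-type and 483, 571 and 498 in B6 wild-type livers (-1.23, adjusted p = 8.7e-07; difference 1.40, adjusted p = 0.00056). Pxdc1 was 545, 682 and 644 in D2 Hfe-/- and 491, 437 and 448 in B6 Hfe-/- livers, against 148, 195 and 206 in D2 and 471, 487 and 528 in B6 wild-type livers (difference 1.89, adjusted p = 0.00056). Stard3nl, an endosomal cholesterol-binding protein 4.34 Mb from Hfe, was 75.5, 100.3 and 81.5 in D2 and 70.2, 83.6 and 81.3 in B6 Hfe-/- livers, against 59.6, 40.5 and 55.8 in D2 and 151, 139 and 150 in B6 wild-type livers (difference 1.64, adjusted p = 0.019). In these 3 genes the D2 wild-type arrays were the low group, and no strain difference was called in the knockouts (adjusted p = 0.34 for Zkscan3, 0.037 for Pxdc1 and 0.76 for Stard3nl). The difference was 0.74 and not called for the mean of the Zkscan3 probe sets, and not called for Stard3nl with run as a block (adjusted p = 0.35). The DNA around Hfe in the knockout lines was not analysed here.

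Other genes of that interval differed in knockout liver. Akr1c19, an aldo-keto reductase 19.5 Mb from Hfe, was 500.5, 410 and 371 in D2 and 1596, 1521 and 1704 in B6 Hfe-/- livers (-1.92 ± 0.12, adjusted p = 6.46e-08), against 757, 746 and 973 in D2 and 960, 1037 and 951 in B6 wild-type livers (-0.26; difference -1.66, adjusted p = 0.00061). Here the B6 Hfe-/- arrays were above and the D2 Hfe-/- arrays below all wild-type arrays. Its neighbour Akr1c13 was also lower in D2 Hfe-/- (-0.61, adjusted p = 0.000635), as was Agtr1a, the angiotensin II receptor (-0.68, adjusted p = 0.000354), and Bphl, a hydrolase, was higher (0.69, adjusted p = 0.000126). Akr1c19 kept its call with run as a block, and Akr1c13 (adjusted p = 0.0999), Agtr1a (0.18) and Bphl (0.017) did not. Akr1c12 was also called lower in D2 Hfe-/- livers, and Lgals8 and Inhba higher, and none of them kept its call with run as a block. The mean of the Bphl probe sets differed by 0.34 and was not called. Serpinb6b, a serpin, was 56.0, 91.8 and 128 in D2 and 37.5, 25.8 and 33.9 in B6 Hfe-/- livers but 20.8, 16.8 and 27.2 in D2 and 70.5, 56.7 and 44.2 in B6 wild-type livers, with opposite strain differences of 1.45 and -1.40 (difference 2.85, adjusted p = 0.021). Its knockout call (adjusted p = 0.00892) was lost when any array other than D2 Hfe-/- 1 and D2 wild-type 2 and 3 was left out (1.17 to 1.56), and with run as a block neither it (0.75, adjusted p = 0.75) nor the difference (adjusted p = 0.49) was called. Within 5 Mb of Hfe 36 genes held 0 calls in knockout and 3 in wild-type liver, and within 10 Mb 68 genes held 3 and 3.

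**Figure D5:**
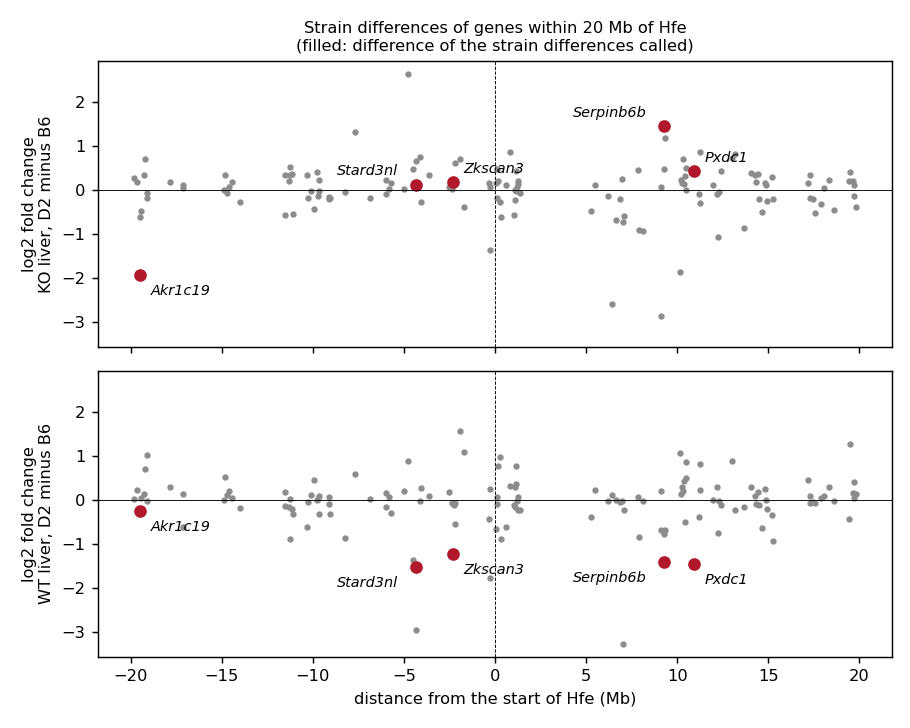
Log2 fold change of D2 over B6 in knockout liver (top) and wild-type liver (bottom) of the 142 genes within 20 Mb of Hfe, against distance from the start of Hfe in Mb; the large points are the 5 genes whose 2 strain differences were called different. Zkscan3, Stard3nl and Pxdc1 lie between 0.12 and 0.44 in KO liver and between -1.51 and -1.23 in WT liver.

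Of 29 genes that the study had placed in intervals linked to iron loading as cis-regulated, 7 were higher and 10 lower in D2 Hfe-/- livers, beside 6 and 9 in wild-type liver. That list was drawn up partly from strain and Hfe effects in these samples and is not independent evidence of their direction. Sae1, a subunit of the SUMO-activating enzyme, was 619, 790 and 746 in D2 and 164, 173 and 160 in B6 Hfe-/- livers (2.11 ± 0.11, adjusted p = 1.11e-08), and Asgr2, a subunit of the asialoglycoprotein receptor, was 836, 1305 and 869 in D2 and 228, 195 and 246 in B6 (2.15 ± 0.19, adjusted p = 2.65e-06). Dhx40, a helicase-family protein, was 104, 105 and 142 in D2 and 296, 353 and 324 in B6 (-1.48, adjusted p = 2.01e-06), and Tbcb, a tubulin folding cofactor, was 192, 148 and 192 in D2 and 399, 416 and 545 in B6 (-1.35, adjusted p = 8.08e-06). D2 and B6 were apart in all 4, and each had a called wild-type difference of the same sign. When run was blocked Sae1 and Asgr2 kept their calls and Dhx40 (adjusted p = 0.021) and Tbcb (0.022) did not. The difference between genotypes was called for 2 genes of this list, Hamp and Hamp2.

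In the duodenum of the same groups of mice 489 genes were called between D2 Hfe-/- and B6 Hfe-/- (3.76%). Of these, 160 were called in liver in the same direction, which is 22.6% of the liver calls and 32.7% of the duodenum calls. Alad was higher in D2 in both tissues (2.02 in duodenum, adjusted p = 3.9e-07), Rpgrip1 lower (-3.90, adjusted p = 7.4e-08) and H2-Ea higher (8.47, adjusted p = 8.8e-07). Sae1, which differed by 2.11 in liver, differed by -0.02 in duodenum (adjusted p = 0.93), and Snrnp25, by 3.94 in liver, differed by 0.22 (adjusted p = 0.40). Differences between the tissues were not tested.

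Few markers of other cell types were called. None of 20 Kupffer cell and macrophage, 15 bile duct, 16 lymphocyte, 9 neutrophil and 18 intestinal markers was called in knockout liver. Apart from the macrophage list, the mean signals of these lists were near or below the array medians. Their lack of calls therefore does not show equal cell content. The mean log2 signal of the macrophage markers was 6.78 to 7.05 in D2 Hfe-/- and 6.97 to 7.71 in B6 Hfe-/- livers, and that of the lymphocyte markers 2.86 to 3.83 in D2 and 3.46 to 3.74 in B6. Single genes were called among 20 endothelial (Dnase1l3, higher), 20 stellate cell (Reln, higher), 12 adipocyte (Pnpla2, lower) and 17 pancreatic acinar markers. Dnase1l3 (adjusted p = 0.21), Reln (0.42) and Pnpla2 (0.47) lost their calls with run as a block. Of the 20 endothelial markers only 7 were higher in D2 Hfe-/- livers, with a median log2 difference of -0.14. Their mean log2 signal was 7.19 to 7.29 in D2 Hfe-/- and 7.30 to 7.43 in B6 Hfe-/- livers, lower on every D2 array. Of the stellate cell markers 12 were higher (median 0.06), and of the adipocyte markers 7 (median 0.04). The acinar gene was Cela1, an elastase, at 610, 1178 and 1147 in D2 and 208, 161 and 187 in B6 Hfe-/- livers (2.35 ± 0.20, adjusted p = 2.25e-06; adjusted p = 0.021 with run as a block). It was higher on all D2 arrays, while the acinar list as a whole had a mean log2 signal of 3.36 to 3.89 in D2 and 3.03 to 3.43 in B6 Hfe-/- livers, near or below the array medians. In whole liver, fewer cells of a type and less RNA per cell cannot be told apart.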

How the data were processed

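Total liver RNA was hybridized to Affymetrix Mouse Genome 430 2.0 arrays, 1 mouse per array and 3 arrays per group. The authors deposited MAS5 signal intensities, scaled per array and without detection calls. The version of the software is not given in the sources used here. For the present comparison, log2 of the deposited intensity was taken with no pseudocount, and probe sets were kept where the third-highest signal was at least 20 in liver or duodenum (28061 of 45101). Where several kept probe sets carried the same single symbol, the brightest on average stood for the gene. The 12 liver arrays in 4 groups were fitted with limma 3.58.1 (lmFit and eBayes with an intensity trend, R 4.3.3), with two-sided p-values adjusted by the Benjamini-Hochberg method over all probe sets. The duodenum arrays were fitted apart. Calls were made at 0.01 for strain and at 0.1 for the difference between genotypes and for knockout against wild type. The scripts were tested on simulated data.

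Genes to name were picked from several sets. The first were the 12 largest called rises and falls without overlap and with a mean of at least 100 in the higher group. The second were the 8 largest differences between genotypes each way. The others were up to 6 genes per list, those of smallest adjusted p in knockout liver whether called or not, and all of the iron and heme lists. To these were added the genes the study names and called genes within 20 Mb of Hfe. Only part of these other sets is printed, so a gene left out of the text may have been tested or called. Members and lists were chosen with earlier results of these data known. Alternatives were other filters, scaling, pseudocounts, probe set summaries, blocks (replicate number, inferred hybridization run, day, fluidics station) and each array left out in turn. Those by day, by run as a random block and on the first day only were added after seeing the data. Genes with no probe set of a single symbol were not analysed here.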

Additional observations from a re-analysis of the deposited data

Results flagged for a closer look

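The strain difference differed between knockout and wild-type liver for 60 probe sets, and the named genes among them are given here by the size of that difference, D2 minus B6 in Hfe-/- liver less D2 minus B6 in wild-type liver, on the log2 scale, each past an adjusted p of 0.1 in limma. The hepcidin genes were at -1.53 (Hamp) and -1.92 (Hamp2). Positive differences were 3.49 for Obp2a, 2.83 for Fmn2, 2.78 for Cyp7b1, 2.78 for Ugt2b38, 2.28 for Med18, 1.63 for Hsd3b3 and 1.07 for Cyp2c23. Negative differences were -2.72 for Abcd2, -1.41 for Stbd1, -1.22 for Gdap10, -1.22 for Snhg6 and -1.20 for Cyp2c37. Within 20 Mb of Hfe they were 2.85 for Serpinb6b, 1.89 for Pxdc1, 1.64 for Stard3nl, 1.40 for Zkscan3 and -1.66 for Akr1c19. With the hybridization run as a block only Akr1c19, Pxdc1, Zkscan3 and Ugt2b38 of these kept a called difference.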

How the results depend on the processing

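In knockout liver, 1326 became 736 with only the 6 arrays compared, 586 with no intensity trend, 139 with run as a block, 624 with day as a block, 442 on the first day alone, 2596 at an adjusted p of 0.05 and 746 with a 2-fold minimum, and leaving out each array in turn gave 851 to 1510. In wild-type liver, 1222 became 568 with no trend, 545 with run, 755 with the fluidics station as a block, 738 on the first day alone, 2273 at 0.05 and 665 with a 2-fold minimum, and 753 to 1376 with each array left out. The difference between genotypes, 60, became 149 with a signal minimum of 100, 5 with no trend, 10 with run, 26 with station, 17 with day as a block, 32 at 0.05, and 26 to 635 with each array left out. Windows of 5 and 10 Mb around Hfe held 0 and 3 calls in knockout and 3 and 3 in wild-type liver.

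Of 83 called genes with values in the text, 30 stayed called with run, 64 with day as a block, 57 on the first day alone, 57 with no trend and 73 with each array left out in turn. Signs turned for Sc5d (0.0877 over the mean of its probe sets) and for 4 genes that were not called. They were Tfrc (-0.00312 with quantile normalization, -0.30 with run as a block, -0.17 to 0.29 with each array left out), Cyp7b1 (-1.15 with run, -0.39 with day, -0.30 on the first day and -0.21 to 0.74 with each array left out), Ugt2b38 (0.14 with run) and Stard3nl (-0.013 with run).

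The replicate numbers did not pair the arrays. Log2 deviations from the group mean correlated at 0.086, -0.040 and 0.098 between same-numbered Hfe-/- arrays of the strains. Between differently numbered arrays these correlations were -0.172 to 0.136. A replicate block gave 1223 calls in knockout liver.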
